A study of Mus musculus with 4 samples.

Results

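The repeats described here lie in the region of mouse chromosome 18 (build mm9) that holds the clustered protocadherin genes, between bases 37007082 and 38044564. A locus was taken when the deposited tables placed its start inside a fixed window over the Pcdha, Pcdhb and Pcdhg clusters, and 747 of the 640693 entries in the tables were members. They comprised 7 of 6216 LTR loci, 202 of 145916 LINE loci and 538 of 488561 flanking intervals, which are stretches beside an LTR or LINE locus that were counted in the same way. The region was picked because 1 of its LTR loci, an RLTR10D element, held more reads in Lsh-/- embryos than any other LTR locus outside the IAP family that was more than 5 higher on the log2 scale there, so the region was chosen by the embryo values of that locus, and differences between the embryo libraries are given as a description.

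RNA-seq libraries were made from C57BL/6J mice, with 1 library in each of 4 groups. WT fibroblasts and Lsh-/- fibroblasts are SV40-transformed lines grown from adult tail-tips, and WT embryos and Lsh-/- embryos are whole embryos at embryonic stage E13.5. The labels call the control embryos WT, whereas the study's methods speak of heterozygous and homozygous embryos, and no source used here says how many embryos or lines went into a library. Lsh-/- cells lack functional Lsh, a chromatin helicase encoded by Hells that is needed for normal DNA methylation. With 1 library per group no difference has a replicate check, no test between genotypes was possible, and the intervals given cover counting error only.

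Clustered protocadherins are cell-surface adhesion molecules of neurons. Each variable exon of the Pcdha and Pcdhg clusters has its own promoter and is spliced to constant exons shared by the cluster, whereas each Pcdhb gene is a single-exon gene with its own promoter. Single neurons use only a few of these promoters, and the choice depends on promoter methylation and on looping by CTCF and cohesin. RLTR10D is a long terminal repeat of the ERVK class of endogenous retroviruses, as are the LTRs of IAP (intracisternal A-particle) elements. LINE-1 elements are retrotransposons without LTRs, most of which are truncated copies.

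The 6 tables of a library together held 19216257 counts in Lsh-/- fibroblasts, the shallowest library, and 33904311 in WT embryos, the deepest. Fold changes are Lsh-/- over WT on the log2 scale after TMM scaling over the intervals beside LINE-1 loci with a small prior count, and a locus with at least 10 counts in the pair is called higher or lower when its log2 fold change is above 1 or below -1. In fibroblasts, scaling by the total of all 6 tables would raise every log2 fold change by 0.68, whereas in embryos it would shift them by -0.01. Exon intervals of Hells held 4223 counts in WT fibroblasts, 3230 in Lsh-/- fibroblasts, 1635 in WT embryos and 1019 in Lsh-/- embryos. Where the targeted exons lie relative to these intervals was not examined, so the counts do not check the genotype labels. A locus with no read in any library is not listed in the tables, and 0 counts were entered for a library that did not list a locus.

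Reads on the 7 LTR loci came almost wholly from the Lsh-/- libraries. Together the 7 loci held 2 counts in WT fibroblasts, 859 in Lsh-/- fibroblasts, 1 in WT embryos and 1114 in Lsh-/- embryos. All 3 RLTR10D elements of the region lay on the plus strand, the strand of the protocadherin genes, and all 3 were intergenic, 1 before the Pcdha cluster, 1 between Pcdha and Pcdhb and 1 between Pcdhb and Pcdhg. The first 2 of them had very different levels in the 2 tissues.

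The RLTR10D before Pcdha (37010367 to 37016732, a 6366-base element starting at -79.6 kb from the first base annotated to Pcdha) held 0 counts in WT fibroblasts, 764 in Lsh-/- fibroblasts, 0 in WT embryos and 116 in Lsh-/- embryos. Against a floor of 3 counts for a library without a read, it was at least 247-fold higher in Lsh-/- fibroblasts and at least 40.1-fold higher in Lsh-/- embryos. Between the Lsh-/- libraries its level was lower in embryos, by -3.36 on the log2 scale (95% counting interval -3.66 to -3.08).

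The RLTR10D between Pcdha and Pcdhb (37395488 to 37401857, 6370 bases), for which the region was chosen, held 0, 12, 1 and 931 counts in the same order of libraries. In embryos the log2 ratio of 931 to 1 was 9.92 (7.44 to 15.2), and in fibroblasts the locus was at least 3.87-fold higher in Lsh-/-. Its level in Lsh-/- embryos was 5.62 higher on the log2 scale than in Lsh-/- fibroblasts (4.82 to 6.59), the opposite order to the first element.

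The RLTR10D between Pcdhb and Pcdhg (37712576 to 37716456, 3881 bases) held 0, 21, 0 and 35 counts, at least 6.78-fold higher in Lsh-/- fibroblasts and at least 12.1-fold higher in Lsh-/- embryos. Its levels in the 2 Lsh-/- libraries differed by 0.09 on the log2 scale, with an interval from -0.73 to 0.95. A difference inside that range was not detectable at this depth.

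Among the 114 listed RLTR10D loci of the genome, 56 held at least 10 counts in the Lsh-/- libraries, and their log2 ratio of Lsh-/- embryos over Lsh-/- fibroblasts ran from -7.72 to 8.11 with a median of -0.21. The element before Pcdha had 9 loci below it and 46 above it in that order, and the element between Pcdha and Pcdhb had 53 below and 2 above. By count, the first ranked 3rd in Lsh-/- fibroblasts and 15th in Lsh-/- embryos, the second 42nd and 2nd, and the third 30th and 27th. With the 128 listed RLTR10A loci added, the ranks were 3rd and 18th, 69th and 2nd, and 50th and 39th of 242. Their sequences in the reference genome were compared by edit distance, given as the share of the shorter element's width left after subtracting the edits. It was 86.9% for the first and the third element, 74.9% for the second and the third, and 53.9% over 6366 bases for the first and second. Inserted and deleted bases count as edits, so a long insertion or deletion alone lowers this share.

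The other LTR loci held fewer reads. IAPLTR2b on the minus strand at 37048211 to 37051832 held 0 counts in WT fibroblasts against 29 in Lsh-/- fibroblasts, and 0 and 20 in the embryos. An IAPLTR1a_Mm element on the minus strand, inside an intron of the Pcdha gene model (37141184 to 37148305), held 0, 27, 0 and 6. These 2 loci were at least 9.36-fold and at least 8.72-fold higher in Lsh-/- fibroblasts. A plus-strand IAPLTR1a_Mm element within the Pcdhb cluster, at 37523753 to 37530959, held 0, 6, 0 and 6 counts, and RLTR14 at 37804452 to 37805343 held 2, 0, 0 and 0, the only LTR locus of the region with more reads in WT than in Lsh-/-.

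All 5 LTR loci with at least 10 counts were higher in Lsh-/- fibroblasts and all 4 were higher in Lsh-/- embryos, where 78.3% and 51.0% of the tested LTR loci of the whole series were higher and 4.52% and 11.9% were lower. The loci counted here reached 10 counts through the Lsh-/- library, since all 5 in fibroblasts and 3 of the 4 in embryos had no WT read, so their direction was set by that minimum.

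**Figure D1:**
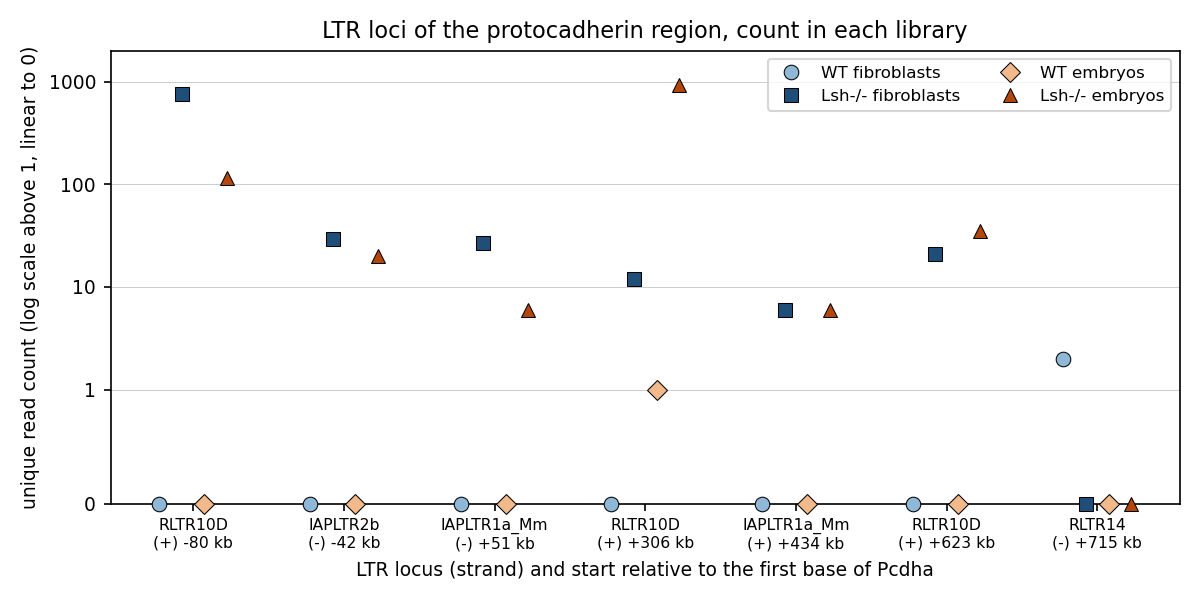
Unique read count (log scale above 1) of the 7 LTR loci in order along the chromosome, with the strand and the start relative to the first base of Pcdha in kb. One point is 1 library. Points of both WT libraries lie at 0 to 2 at every locus, the RLTR10D at -80 kb is highest in Lsh-/- fibroblasts (764) and the RLTR10D at +306 kb in Lsh-/- embryos (931).

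LINE loci of the region were counted against those of the series. In fibroblasts 25 of the 202 reached 10 counts, of which 19 were higher and 4 lower, against 24.1% higher and 18.2% lower of 14058 tested LINE loci of the series. In embryos 58 reached 10 counts, of which 34 were higher and 10 lower, against 21.3% and 20.7% of 24989. The median log2 fold change of the tested members was 6.69 in fibroblasts and 1.39 in embryos, and 0.09 and 0.04 over all tested LINE loci. On the rest of chromosome 18, 75 of 445 tested LINE loci were higher and 90 lower in fibroblasts, and 203 of 869 were higher and 167 lower in embryos. Of the members that were higher, 15 of 19 in fibroblasts and 18 of 34 in embryos had no WT read, so their direction was set by the minimum. The other 177 and 144 LINE members held fewer than 10 counts in the pair, and 79 and 36 of these held none.

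The 202 LINE loci were 191 of family L1, 9 of L2 and 2 of CR1, and their median width was 394.5 bases. By annotation (GENCODE vM1), 125 were intergenic, 71 lay in an intron and 6 overlapped an exon. The tested loci were themselves mostly intergenic, 22 of 25 in fibroblasts and 33 of 58 in embryos. Of the 22 intergenic loci tested in fibroblasts 18 were higher and 3 lower, and of the 33 tested in embryos 26 were higher and 0 lower. Of the intronic loci 1 of 3 was higher and 1 lower in fibroblasts, and 6 of 21 were higher and 10 lower in embryos. Both strands were represented, since 13 of 18 tested plus-strand loci and 6 of 7 minus-strand loci were higher in fibroblasts, and 19 of 31 and 15 of 27 in embryos. With no WT read in 15 of the 19 higher loci in fibroblasts and 18 of 34 in embryos, their direction was set by the minimum. Shares by annotation and strand over the whole series were not counted.

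Before the Pcdha cluster the 29 LINE loci held 1 count in WT fibroblasts, 343 in Lsh-/- fibroblasts, 0 in WT embryos and 216 in Lsh-/- embryos. The 14 that reached 10 counts in fibroblasts and the 9 that did so in embryos got there through the Lsh-/- library and were higher by construction. The loci with the most counts there were L1VL4 elements, among them 1 on the minus strand at 37025127 to 37026939 with 0, 48, 0 and 18 counts and 1 on the plus strand at 37042486 to 37044839 with 0, 36, 0 and 33. The former was at least 15.5-fold higher in Lsh-/- fibroblasts and at least 6.23-fold higher in Lsh-/- embryos, and the latter at least 11.6-fold and at least 11.4-fold. A neighbouring L1VL4 at 37023291 held 0, 34, 0 and 22 counts, and Lx3_Mus at 37053607 held 0, 32, 0 and 21.

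Between Pcdhb and Pcdhg the 41 LINE loci held 96 counts in WT fibroblasts against 234 in Lsh-/- fibroblasts, a log2 ratio of the sums of 1.24 (0.89 to 1.60). In embryos they held 105 and 551, a log2 ratio of 2.45 (2.14 to 2.76). The largest contribution in fibroblasts came from a long L1Md_T element on the plus strand (37735437 to 37740833) with 0 counts in WT fibroblasts, 88 in Lsh-/- fibroblasts, 0 in WT embryos and 94 in Lsh-/- embryos. L1Md_T is one of the youngest mouse LINE-1 subfamilies, and this copy was at least 28.4-fold and at least 32.5-fold higher in Lsh-/-. The L1_Mur2 copy at 37744817 held 0, 6, 0 and 46 counts.

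Closer to the last Pcdhb gene, LINE loci were read in both genotypes. L1Md_F2 at 37683057 held 24 counts in WT fibroblasts against 23 in Lsh-/- fibroblasts and 29 and 96 in the embryos, a log2 fold change of 1.78 in embryos (1.17 to 2.43). L1_Mus3 at 37685490 held 12, 4, 4 and 22, and Lx3A at 37689345 held 21, 8, 22 and 54. Both were called lower in Lsh-/- fibroblasts and higher in Lsh-/- embryos. The fibroblast fold changes were -1.60 (-3.72 to 0.09) and -1.42 (-2.82 to -0.21), so the interval of L1_Mus3 included 0. When the libraries were scaled by the total of all 6 tables, these values became -0.94 and -0.75, inside the limit. L1MC4 at 37826677, near the first Pcdhg exon, held 8, 19, 15 and 58.

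Within the Pcdhb cluster the 51 LINE loci held 72 counts in WT fibroblasts against 34 in Lsh-/- fibroblasts, a log2 ratio of -1.13 (-1.76 to -0.52), and 243 and 503 in the embryos, a log2 ratio of 1.10 (0.88 to 1.33). With scaling by the total of all 6 tables the fibroblast ratio was -0.45 and its interval, -1.08 to 0.16, included 0. In fibroblasts the value rested largely on L1MB8 at 37643200, between 2 Pcdhb genes, with 51, 12, 44 and 103 counts. Among tested LINE loci of the cluster 7 of 14 were higher in Lsh-/- embryos and 0 lower. HAL1 at 37653662, inside an exon of Pcdhb18, held 4, 3, 18 and 48 counts, and the intergenic L1M2 at 37611053, behind Pcdhb14, held 0, 4, 7 and 55.

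In the Pcdhg cluster the direction in embryos was mixed. The 36 LINE loci there held 31 and 66 counts in fibroblasts, a log2 ratio of 1.04 (0.41 to 1.71), and 208 and 158 in embryos, a log2 ratio of -0.34 (-0.65 to -0.04). Of the 16 tested in embryos 4 were higher and 8 lower. L1_Mur3 at 37952195 held 0, 2, 14 and 1 counts, and L1M2 at 37952665 next to it held 7, 10, 20 and 31. L1MA4 at 37837445 held 3, 5, 11 and 5, L1ME1 at 37947751 held 0, 0, 9 and 4, and L1MC4 at 37990386 held 4, 2, 15 and 7. These 3 lower calls rested on at most 22 counts each, and with a prior count of 1 none of the 3 was past the limit. The Pcdha cluster held few LINE reads, with 1 and 22 counts over 27 loci in fibroblasts and 12 and 69 in embryos. Beyond Pcdhg, 10 loci inside Diap1, a formin gene on the other strand, held 19 and 19 counts in fibroblasts and 28 and 11 in embryos, and L1MB8 at 38006176 among them held 8, 4, 14 and 0.

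The flanking intervals were read for position. In the whole series, every repeat of at least 20 counts that lay wholly 10 to 11 kb from a listed locus (1734 of 1734 after LINE loci and 1809 of 1809 before them) held no more counts than the interval of that locus, against 80.5% to 84.0% of repeats 1 kb nearer or farther. The study's methods describe these intervals as of equivalent width, 10 kb from the annotation. The same held for 2762 of 2762 repeats beside elements under 500 bases and for 112 of 112 beside elements of at least 2000 bases, against 84.7% and 78.5% of repeats at 11 to 12 kb, so in these counts the interval did not follow the width of its element. An interval was therefore taken as the 1 kb stretch 10 to 11 kb from its locus, with upstream meaning lower coordinates. Intervals of neighbouring loci overlap and share reads, and 290 that do not overlap were kept for the description along the chromosome.

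The flanking intervals of the region were counted in the same way. In fibroblasts 84 of 158 tested were higher and 26 lower, against 18.86% and 13.48% of 118174, and in embryos 138 of 280 were higher and 27 lower, against 14.28% and 14.34% of 162590. Of those tested, 53 and 72 had no WT read and reached 10 counts through the Lsh-/- library, so their direction was set by the minimum. With scaling by the total of all 6 tables the fibroblast counts were 101 higher and 14 lower. Among intervals that do not overlap, 48 of 96 tested in fibroblasts were higher and 13 lower, and 68 of 146 tested in embryos were higher and 15 lower. Of these, 30 of 35 intergenic intervals in fibroblasts and 38 of 44 in embryos were higher, whereas intervals on exons were higher in 12 of 46 and 24 of 61. Shares of intervals by annotation over the whole series were not counted. The remaining 380 and 258 intervals were below 10 counts in the pair.

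**Figure D2:**
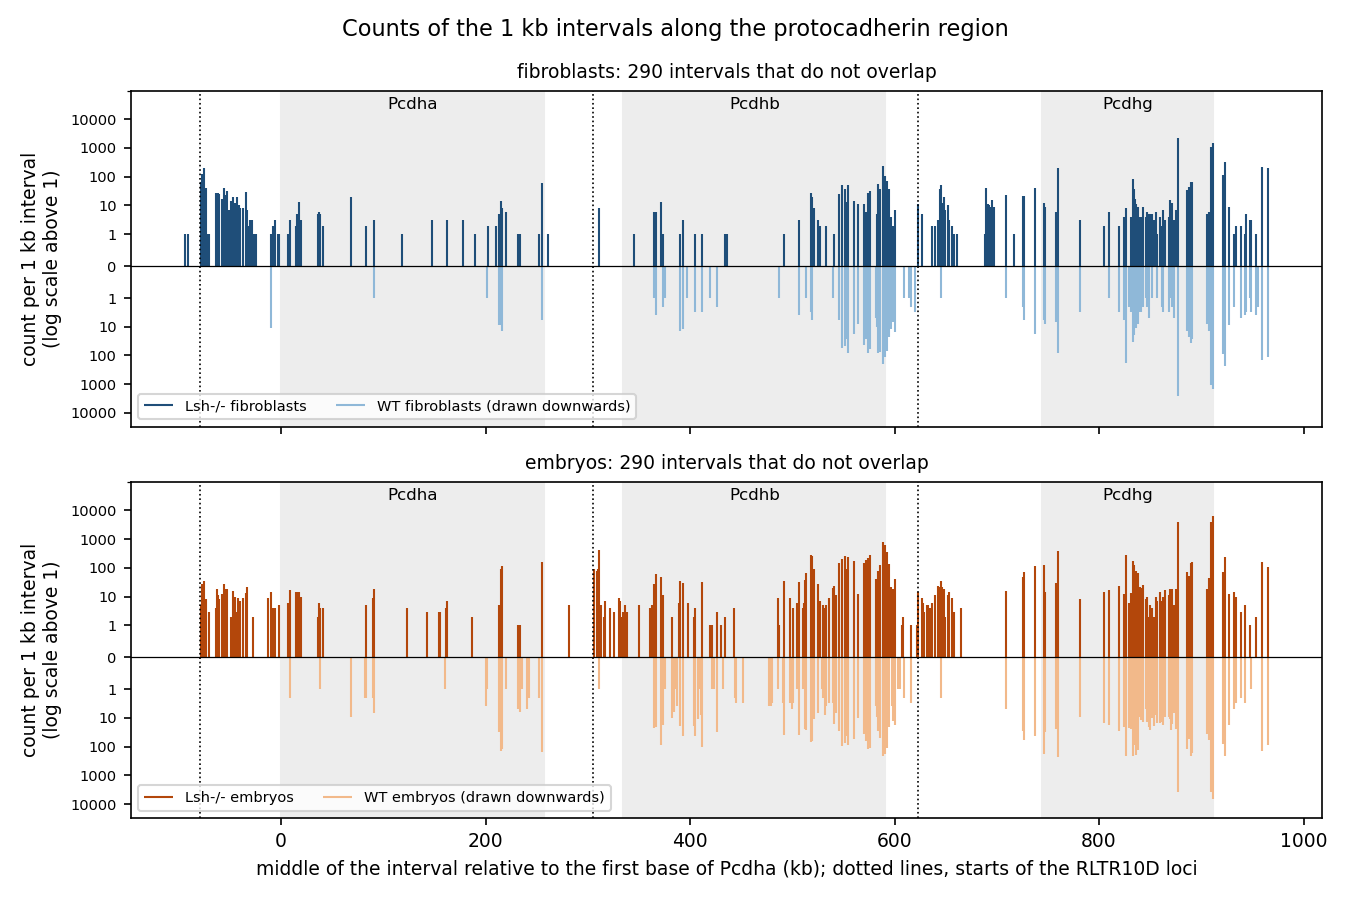
Counts of the 290 intervals of 1 kb that do not overlap (log scale above 1), by distance from the first base of Pcdha in kb, with Lsh-/- drawn upwards and WT downwards. Grey bands are the 3 gene clusters and dotted lines the RLTR10D starts. After the first and the third RLTR10D, intervals hold reads in both Lsh-/- libraries and almost none in WT, whereas the bars over Pcdhg are of like height in both genotypes.

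At or beside each RLTR10D element, listed LTR and LINE loci in a row had no WT read. Whether reads ran outward from the elements was not tested. Starting with the first RLTR10D, 31 listed LTR and LINE loci in a row, over 84.0 kb up to base 37094319, had no read in either WT library. They held 1137 counts in Lsh-/- fibroblasts and 352 in Lsh-/- embryos, of which 344 and 216 lay on the 29 LINE loci, and 20 of the 31 loci held reads in both Lsh-/- libraries. They comprised 15 plus-strand and 16 minus-strand loci. The strand of the reads is not given in the tables. In the series 21940 such runs of loci without a WT read were found, the longest of 71 loci, and 32 held at least 31 loci. Only this run held at least 1137 and 352 counts in the 2 Lsh-/- libraries. As listing itself depends on a read in some library, a run without WT reads was listed through the Lsh-/- libraries. Of the 209 LTR and LINE loci of the region 102 (48.8%) had no read in either WT library, against 27.4% of 152132 in the series.

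In the listed intervals after the first and the third element, mean counts were highest at 10 to 20 kb and lower further on. Means were taken over intervals wholly inside a 10 kb bin, and intervals across a bin edge were left out. After the first element these included 37045974 (19 and 3 counts in Lsh-/- fibroblasts and embryos) and 37056279 (7 and 22). After the third, the interval at 37736322 (12 and 22) was left out. The 3 intervals in the first 10 kb after the first element do not cover all of that stretch. L1VL4 at 37023291 lies there outside them and held 34 counts in Lsh-/- fibroblasts and 22 in Lsh-/- embryos. Whether counts next to the first element were lower was therefore not settled. After the first RLTR10D, the mean count per interval in Lsh-/- fibroblasts was 10.0 over the first 10 kb (3 intervals), 26.7 at 10 to 20 kb (6 intervals), 16.8 at 20 to 30 kb, 12.8 at 30 to 40 kb and 1.67 at 40 to 50 kb. In Lsh-/- embryos the corresponding means were 2.33, 15.8, 9.40, 8.40 and 0.33, and all 25 of these intervals held 0 counts in both WT libraries. After the third, 5 intervals at 10 to 20 kb held 97 counts in Lsh-/- fibroblasts and 96 in Lsh-/- embryos, and 1 and 2 in the WT libraries, while the 5 intervals nearest to the element held 0 counts in Lsh-/- fibroblasts and 23 in Lsh-/- embryos. Of the 97, 38 lay in the interval at 37733457 and 52 in the one at 37735040, beside and over the start of the L1Md_T element described above, on which 3 of the intervals further on also lie. At 20 to 30 kb 5 intervals held 41 and 54 counts, and at 30 to 40 kb 3 intervals held 2 and 7.

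After the second RLTR10D, reads were seen in Lsh-/- embryos and hardly at all in fibroblasts. The intervals at 37411183 and 37420915 cross a bin edge and were left out, with 4 and 7 counts in Lsh-/- embryos and 0 in the other libraries. The 12 intervals wholly inside a bin up to 50 kb beyond the element held 0 counts in both WT libraries and 1 in Lsh-/- fibroblasts. In Lsh-/- embryos they held 14 counts over the first 10 kb, 12 at 10 to 20 kb, 13 at 20 to 30 kb, 5 at 30 to 40 kb and 4 at 40 to 50 kb. The 10 LINE loci in a row from base 37401858 to 37453324 likewise had no WT read, with 1 count in Lsh-/- fibroblasts and 48 in Lsh-/- embryos. Among them Lx2A1 at 37406092 held all of its 14 counts in Lsh-/- embryos. Intervals on the element itself overlap one another, and the largest of those kept held 0, 8, 1 and 428 counts. Between 37370788 and 37400395, 4 intervals in a row held 5 to 93 counts in Lsh-/- embryos, 264 in all, and 0 in the other 3 libraries, and the last 3 of these lie on the element. The converse was seen in 6 intervals in a row between Pcdhb and Pcdhg, at 37778869 to 37788151, which held 9 to 40 counts each and 95 in all in Lsh-/- fibroblasts and 0 in the other 3 libraries.

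**Figure D3:**
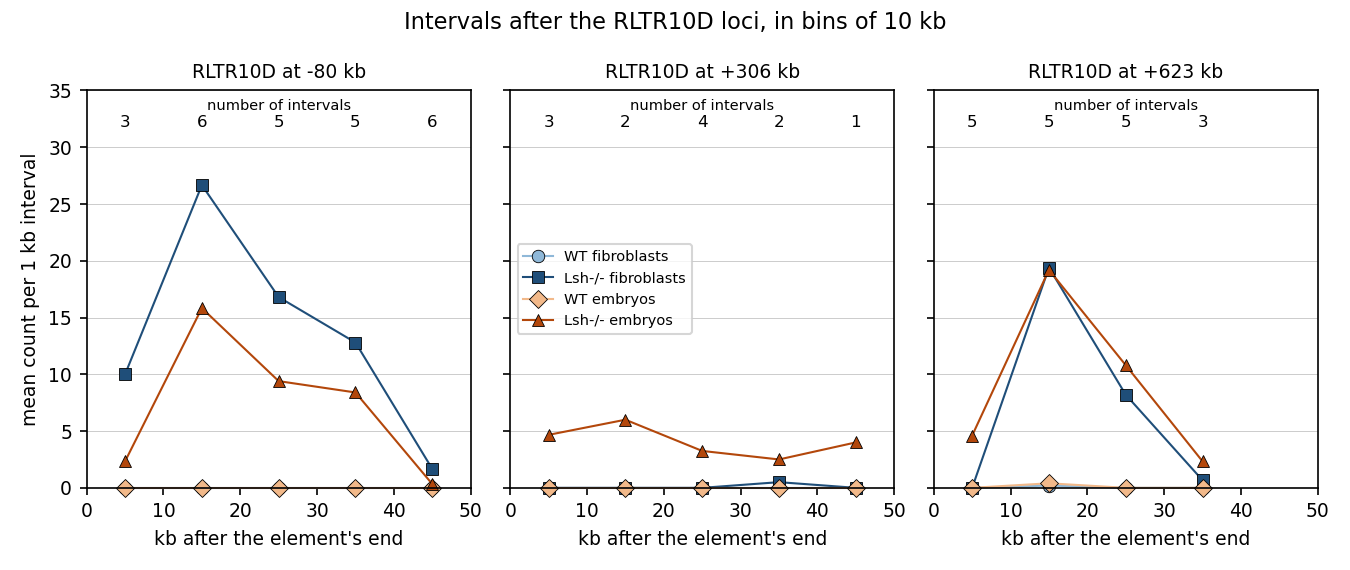
Mean count per listed 1 kb interval in bins of 10 kb after the end of each RLTR10D element, for the 4 libraries (1 library per point, raw counts), with the number of intervals in each bin. Intervals that cross a bin edge are left out. Means of both Lsh-/- libraries are highest in the bin at 10 to 20 kb after the first element (26.7 and 15.8) and the third (19.4 and 19.2). WT means there are at most 0.4. The bin nearest to the first element rests on 3 intervals that do not cover all of it. Up to 50 kb after the second, Lsh-/- embryos hold reads, Lsh-/- fibroblasts 1 count and WT none.

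The intervals that fell on exons gave a reading of the protocadherin genes themselves. Of the 25 annotated genes 22 had an interval covering at least 100 bases of exon. In the Pcdhb cluster of embryos the summed count of 19 genes was 1875 in WT and 4629 in Lsh-/-, a log2 ratio of 1.36 (1.28 to 1.44). Of 18 tested Pcdhb genes 10 were higher and 3 lower in Lsh-/- embryos, whereas of all 12876 tested protein-coding genes 4.33% were higher and 6.63% lower. In fibroblasts the sum was 980 in WT and 803 in Lsh-/-, with 4 of 12 tested genes higher and 3 lower, against 17.9% higher and 5.03% lower of all tested protein-coding genes, or 40.9% and 2.60% with scaling by the total of all 6 tables. Pcdhb genes are similar in sequence, and reads that fit several of them were not counted, so counts of single genes are uncertain to that extent.

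The genes that were higher in Lsh-/- embryos lay side by side at the 3′ end of the Pcdhb cluster. Pcdhb22, the last gene, held 380 counts in WT embryos and 1432 in Lsh-/- embryos (log2 fold change 1.97, 1.80 to 2.14), and 312 and 344 in the fibroblasts. Pcdhb14 held 135 and 559 in embryos (2.10, 1.83 to 2.39) and 9 and 47 in fibroblasts (2.32, 1.29 to 3.55). Pcdhb15 held 29 and 148 in embryos (2.40, 1.82 to 3.03) and 6 and 25 in fibroblasts (1.99, 0.69 to 3.59). These last 2 genes were higher in Lsh-/- in both tissues.

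Every gene from Pcdhb14 to Pcdhb22 was past 2-fold in embryos, with log2 fold changes from 1.14 to 2.40. In between, Pcdhb16 held 210 and 564 counts, Pcdhb17 held 85 and 232, Pcdhb18 held 66 and 187, Pcdhb19 held 100 and 339, and Pcdhb21 held 79 and 205, against 159 and 92 in fibroblasts (-0.83, -1.22 to -0.46). Pcdhb20, annotated as a pseudogene, held 237 and 503. Pcdhb17 was read through 1 interval with only 198 bases of exon, which overlaps the L1MB8 locus at 37643200. With at least 500 bases of exon required Pcdhb17 was not measured, and of 17 tested Pcdhb genes 9 were higher and 3 lower in Lsh-/- embryos. The only other measured gene of the cluster that was past the limit upwards in embryos was Pcdhb2, with 57 and 112 counts, 1.03 on the log2 scale (0.56 to 1.51).

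In the middle of the cluster, 3 neighbouring genes were lower in Lsh-/- embryos. Pcdhb6 held 62 counts in WT and 6 in Lsh-/- (log2 fold change -3.29, -4.82 to -2.11), Pcdhb7 held 94 and 33 (-1.45, -2.07 to -0.87) and Pcdhb8 held 31 and 3 (-3.26, -5.67 to -1.63). All 3 were barely read in fibroblasts, at 0 to 3 counts. The nearest measured genes on either side were within 2-fold in embryos, as Pcdhb5 held 61 and 65 counts, Pcdhb11 held 40 and 34, and Pcdhb12 held 39 and 33. Pcdhb4, Pcdhb9 and Pcdhb10 had no exon interval and were not measured. Where the lower stretch ends between Pcdhb8 and Pcdhb11 was therefore not settled. Pcdhb3 held 109 and 59, and Pcdhb13 held 61 and 110.

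Fibroblasts showed another set of directions. Pcdhb19 held 70 counts in WT fibroblasts against 17 in Lsh-/- fibroblasts (-2.08, -2.95 to -1.31), Pcdhb20 held 141 and 60 (-1.28, -1.74 to -0.83) and Pcdhb5 held 26 and 4 (-2.71, -4.73 to -1.22). Pcdhb3 held 2 and 14 (2.69, 0.64 to 5.94) and Pcdhb2 held 6 and 17 (1.44, 0.05 to 3.09). With scaling by the total of all 6 tables, 4 genes were higher and 2 lower in fibroblasts, and the ratio of the summed counts changed sign, from -0.33 to 0.35.

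**Figure D4:**
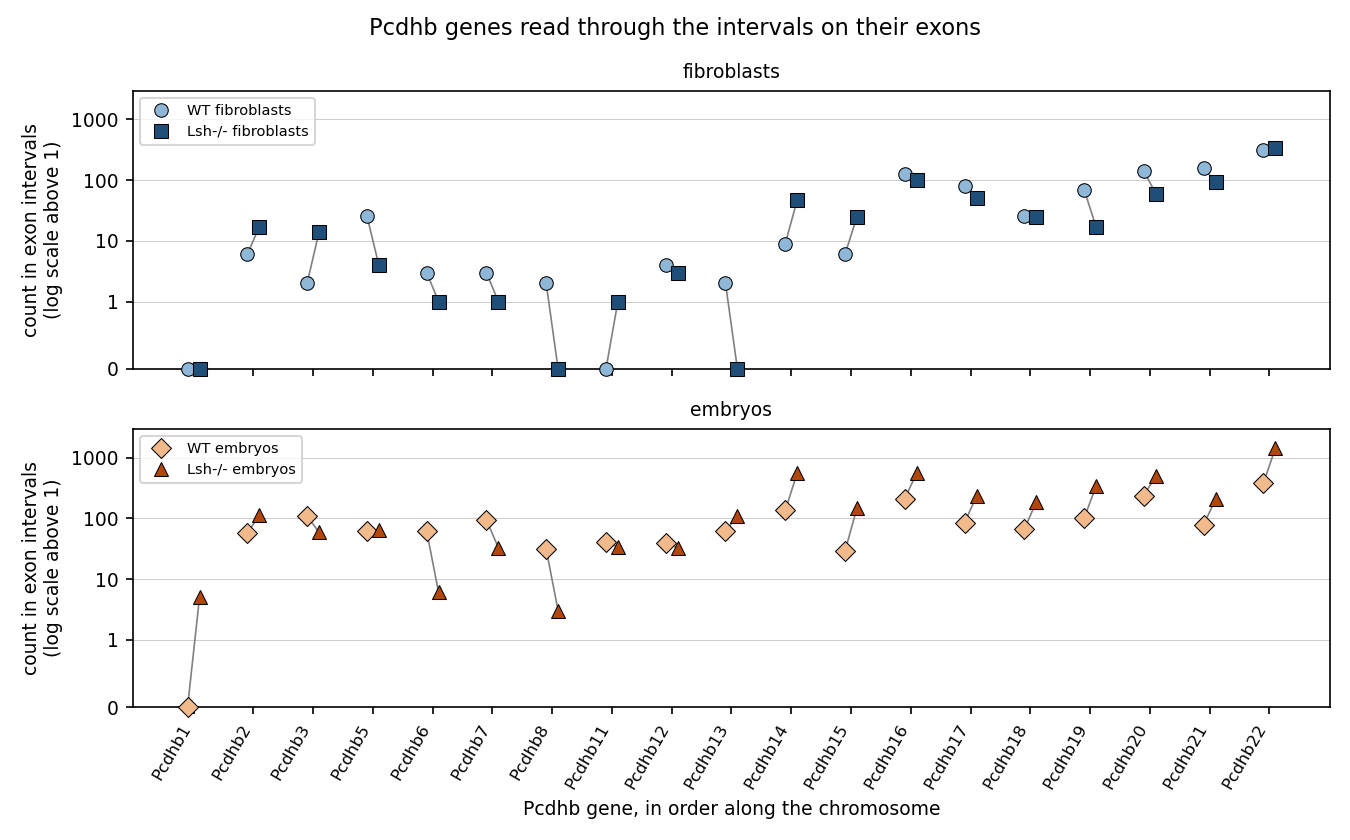
Counts in exon intervals of the 19 measured Pcdhb genes in order along the chromosome (log scale above 1), in fibroblasts above and embryos below. A line joins WT and Lsh-/- of 1 gene, with 1 library per point. In embryos the genes from Pcdhb14 to Pcdhb22 lie higher in Lsh-/- and Pcdhb6, Pcdhb7 and Pcdhb8 lower, whereas in fibroblasts Pcdhb19 and Pcdhb20 lie lower.

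The Pcdhg cluster, which the annotation gives as 1 gene model, was close to equal in both pairs. Its 10 exon intervals held 5353 counts in WT fibroblasts against 5018 in Lsh-/- fibroblasts (log2 fold change -0.14, -0.20 to -0.08) and 15493 and 15385 in the embryos (0.04, 0.01 to 0.08). With scaling by the total of all 6 tables the fibroblast value was 0.54. The last exon of the model, shared by its transcripts, held 2534 and 2507 counts in fibroblasts and 10353 and 10587 in embryos. Single long exons of the model departed from this. The exon at 37915427 to 37918021 held 181 and 8 counts in fibroblasts (-4.52, -5.78 to -3.54) and 219 and 286 in embryos. It overlaps the long non-coding gene Gm16882 on the other strand, which held 192 and 19 counts in fibroblasts. Without the strand of the reads the 2 cannot be told apart. The exon at 37925234 to 37928194 held 19 and 20 counts in fibroblasts and 338 and 146 in embryos (-1.16, -1.45 to -0.87). An intronic interval at 37849423 held 79 and 208 counts in fibroblasts and 221 and 384 in embryos.

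The Pcdha cluster was read at low counts in fibroblasts. The gene model Pcdha11, which spans the cluster, held 38 counts in WT fibroblasts against 138 in Lsh-/- fibroblasts (1.81, 1.29 to 2.37) and 537 and 517 in embryos (-0.18 to 0.18). Its last exon, shared by transcripts of the cluster, held 15 and 87 counts in fibroblasts, a log2 fold change of 2.48, and 255 and 259 in embryos. Pcdha3 held 0 and 13 counts in fibroblasts and 0 and 29 in embryos, at least 4.20-fold and at least 10.0-fold higher in Lsh-/-. The first long exon of Pcdha11, at 37098972 to 37101359, held 0 and 4 in fibroblasts and 0 and 14 in embryos. In the opposite direction, its exon at 37157534 to 37160014 held 9 and 0 counts in embryos, whereas it held 0 and 19 in fibroblasts.

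Hars, Zmat2 and Diap1, protein-coding genes beside the clusters, were within 2-fold in both pairs. Zmat2 held 1241 and 1242 counts in fibroblasts and 1761 and 1564 in embryos, Hars held 1586 and 1508, and 1944 and 1800, and Diap1 held 863 and 1333, and 725 and 808. In fibroblasts the log2 fold changes of Diap1, Hars2, Rell2 and Fchsd1, also beside the clusters, were 0.58, 0.67, 0.68 and 0.85. Scaling by the total of all 6 tables would take these genes past the limit, as it did 40.9% of all tested protein-coding genes. Between Pcdhb and Pcdhg, 3222401L13Rik held 2 and 29 counts in fibroblasts (3.73, 1.83 to 6.92) and 38 and 73 in embryos. Gm6756, annotated just before Pcdha inside the stretch without WT reads at LTR and LINE loci, held 11 and 3 counts in fibroblasts and 0 and 15 in embryos. The vault RNA before the window held 300 and 14 counts in fibroblasts and 11 and 4 in embryos.

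The measured genes known to act on these clusters did not pass the limit. Of 18 listed (Ctcf, cohesin subunits and loaders, Smchd1, Setdb1, Dnmt3a, Dnmt3b, Uhrf1, Rest and others) 16 were tested. Trim28 and Dnmt1, also listed, had no exon interval and were not measured. Of those tested, 0 were higher or lower by more than 2-fold in either pair. Their log2 fold changes ran from -0.43 to 0.92 in fibroblasts and from -0.63 to 0.14 in embryos. The lowest value in each pair was that of Hells itself. The 0 in fibroblasts depended on the scaling, since with the total of all 6 tables Dnmt3a (164 and 320 counts) and Dnmt3b (24 and 43), the de novo DNA methyltransferases, were past the limit at 1.60 and 1.47. Ctcf held 1443 and 1558 counts in fibroblasts and 1228 and 1212 in embryos. Of the 12 protocadherins outside the clusters, 0 of 12 tested were higher and 1 lower in embryos, where Pcdh8 held 403 and 174 counts, and 2 of 8 were higher and 4 lower in fibroblasts, where Pcdh1 held 2 and 290 and Pcdh19 held 7027 and 3125. Over all tested protein-coding genes the shares were 4.33% and 6.63% in embryos and 17.9% and 5.03% in fibroblasts, and with all 6 tables as library size 3 of these 8 were higher and 0 lower.

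Whole embryos mix many cell types, and fewer cells of a type cannot be told apart from less RNA per cell. Over all tested protein-coding genes 4.33% were higher and 6.63% lower in Lsh-/- embryos. Of 23 measured neuronal marker genes 1 was higher in Lsh-/- embryos and 0 were lower. The summed count of these markers was 14865 in WT and 14572 in Lsh-/-, and none was at 0. Of 20 mesenchymal markers 0 were past the limit, with sums of 808152 and 779006. Of 7 tested erythroid markers 4 were lower in Lsh-/- embryos and 0 higher. The lower ones were Hbb-b1 with 162 and 14 counts, Hba-a1 with 29 and 2, Hbb-y with 20 and 2 and Spna1 with 33 and 12. The sums of all 10 were 2632 and 2408, but most of each came from Epb4.1 (1520 and 1512) and Tfrc (734 and 764). In each library 1 marker was at 0. The part of erythroid cells in the values of the region was not tested. In fibroblasts 7 of 13 tested neuronal markers were higher in Lsh-/- and 3 lower, against 17.9% and 5.03% of all tested protein-coding genes. The sum of the neuronal markers was 5141 in WT and 4503 in Lsh-/-, and 6 and 5 of the 23 were at 0. Among them Nefl, a neurofilament subunit, held 0 and 44 counts, Stmn2 held 2 and 276 and Tubb3 held 848 and 410. The part of this difference between the lines in the Pcdha and Pcdhb values was not tested. With all 6 tables as library size 8 neuronal markers were higher and 1 lower, against 40.9% and 2.60% of all tested protein-coding genes. Of 19 tested mesenchymal markers in fibroblasts 3 (15.8%) were higher and 3 lower, or 8 (42.1%) and 1 (5.26%) with that total. The sums of the mesenchymal markers were 100439 and 113908, and 1 of 20, Lum, was at 0 in both.

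Between tissues, the region was read more in embryos in both genotypes. Of 169 flanking intervals tested between the WT libraries 107 were higher in embryos and 15 lower (median log2 ratio 1.98). Over all 145039 tested intervals 46778 were higher and 20910 lower, with a median of 0.30. Between the Lsh-/- libraries 155 of 282 were higher and 48 lower (median 1.18). Over the whole series 46981 of 147015 were higher and 28181 lower (median 0.20). LINE loci followed the same order, with medians of 1.48 in WT and 0.88 in Lsh-/-, against 0.54 and 0.52 over all tested LINE loci. The 6 tested LTR loci had a median of -0.90 in Lsh-/-, with 1 higher in embryos and 3 lower. Over all 2594 LTR loci tested between the Lsh-/- libraries the median was -1.58, with 444 higher in embryos and 1541 lower.

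At the edges of the window the reads were few. The first locus inside, L1_Mm at 37007082, held 1, 0, 0 and 0 counts, and the last locus before the window, IAPEY2_LTR at 36992078, held 1, 1, 0 and 4. The last locus inside, L2 at 38044496, held 2, 0, 0 and 0, and the first locus beyond, L1ME3B at 38066253, held 0, 0, 1 and 2.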

How the data were processed

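Per the labels and the study's methods, paired-end strand-specific libraries (dUTP method) were mapped to mm9 with TopHat 1.4.0 without mismatches in the initial read, unique reads were joined to the repeatmasker annotation, and edgeR was used downstream. The authors deposited raw, unnormalized counts for each repeat locus and each flanking stretch, split over 6 tables a library. The methods give the flanking intervals an equivalent width, and their width was read from the counts. Whether a pair counted once was not given in the sources used here.

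From these counts, library sizes were computed by TMM (edgeR 4.0.16, R 4.3.3) over the intervals beside LINE-1 loci, from 19481559 to 27051956 within pairs. Fold changes used a prior count of 0.125, a minimum of 10 counts in the pair and a limit of 1 (log2). Exact binomial (Clopper-Pearson) intervals at 95% cover counting error only. Ratios to a library without a read use a floor of 3 counts. Starts in the tables count from 0 and are printed from 1. Chromosome 18 of the reference is 90772031 bases long and the largest coordinate in the tables is 90771086. Genes (GENCODE vM1) were read through intervals on their exons, thinned so that none overlap.

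Named loci were every LTR locus with at least 10 counts in a pair, the LINE loci and intervals with most counts overall and among calls, and the loci at the window's edges. Other loci, exons and genes beside them were chosen after their values were seen. The members, gene lists and rules were chosen with earlier results of these data known. Scaling and calls were tested on simulated data. Python 3.11.15, SciPy 1.17.1 and matplotlib 3.10.9 were used.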

Additional observations from a re-analysis of the deposited data

Results flagged for a closer look

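Several results went past the limit in opposite directions in the 2 tissues, lower in Lsh-/- fibroblasts and higher in Lsh-/- embryos, and the difference between tissues was not tested, as each group is 1 library. L1MB8 at 37643200 had a log2 fold change of -2.12 in fibroblasts and 1.28 in embryos. L1_Mus3 at 37685490 had -1.60 and 2.48, and Lx3A at 37689345 had -1.42 and 1.34. The counting interval of the L1_Mus3 value in fibroblasts, -3.72 to 0.09, included 0. Of the intervals on Pcdhb21, the one at 37674297 had -1.70 and 1.53, the one at 37674490 had -2.01 and 1.20, and the one at 37676008 had -1.55 and 1.04. The first of these intervals overlaps the second and shares reads with it. Over the intervals of Pcdhb21 that do not overlap, the gene had -0.83 in fibroblasts, inside the limit, and 1.43 in embryos. Among genes read through exon intervals, Pcdhb19 had -2.08 and 1.81 and Pcdhb20 had -1.28 and 1.14. Over the region 3 of 20 LINE loci and 14 of 140 flanking intervals tested in both tissues were lower in fibroblasts and higher in embryos. In the opposite direction there were 0 of either. The corresponding shares over the whole series were not counted, and flanking intervals that overlap share reads, so these counts are a description of the region only. The fibroblast values depend on the scaling of the libraries.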

How the results depend on the processing

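Depth and the single library per group set the limits. A locus under 10 counts was not read, 2-fold calls near that minimum rest on counting error, and whether transcripts run through the repeats cannot be read from counts without strand. The count minimum moved the number of LINE and interval calls most, and the scaling of the fibroblast pair moved their split. With the total of all 6 tables as library size the share of higher among called flanking intervals went from 76.4% to 87.8% (87.9% with the tables' own total) and that of LINE loci from 82.6% to 95.2%. The summed log2 ratio in fibroblasts then became 2.34 in place of 1.66 for LINE loci of the region, -0.45 (-1.08 to 0.16) in place of -1.13 for those of Pcdhb and 1.72 in place of 1.04 for those of Pcdhg. Read through exons, the fibroblast ratio of Pcdhb became 0.35 (0.37 with the tables' own total) in place of -0.33, and that of Pcdhg 0.54 (0.56) in place of -0.14. These alternatives for exon intervals and gene lists were chosen after seeing the data, as were all overlapping intervals or at least 500 bases of exon. In embryos both scalings left all 5 sums by class and cluster within their counting intervals.

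With a minimum of 50 counts, calls in fibroblasts and embryos were 1 and 2 for LTR loci, 2 and 9 for LINE loci and 24 and 59 for intervals, in place of 5, 4, 23, 44, 110 and 165. Without a minimum LINE calls were 110 and 140 and interval calls 316 and 351. With a limit of 5 they were 15 and 21, and 54 and 77. With loci between the first and the last base of the clusters alone, LTR calls were 3 and 2, fibroblast LINE calls 8 and fibroblast interval calls 70, and the summed log2 ratios were 5.0 in place of 8.70 for LTR loci in fibroblasts, 0.79 in place of 1.66 for LINE loci in fibroblasts and 1.28 in place of 1.43 in embryos. Fewer loci enter these last settings by construction. No paired analysis was possible because each group is 1 library and the labels carry no shared replicate numbers.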
